A study of Mus musculus with 12 samples.

Results

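Open chromatin at the forkhead genes Foxk1 and Foxk2 and at 7 genes of their corepressor partners was described in ATAC-seq summit lists of mouse embryoid bodies. The partners were Sin3a, Sin3b, Suds3, Sap30, Hdac1, Hdac2 and Bap1. A summit, the highest point of a called peak, was taken for one of these 9 genes when the nearest end of a protein-coding gene (mm10, at most 100 kb away) was its own, or when the summit lay inside its body. The rule took 183 of 386209 summits on chromosomes 1 to 19 and X, between 3 and 23 per library, and inclusion of gene bodies added 0 to those found by nearest end. With neighbouring summits of all 12 libraries merged at 250 bp, they made up 40 of 104822 regions.

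The embryoid bodies were grown from embryonic stem cells in mesodermal medium with shaking. Day 3 and day 5 were sampled in the Foxk1 knockout line (KO) and in the iHA-Foxk1 line. Day 10 was sampled in KO cells and in cells labelled Control. Each of these 6 groups has 2 libraries. Doxycycline was absent throughout, as every library carries the label NoDox. The iHA-Foxk1 and Control libraries are called the control of their day here, although the labels do not say whether the Control cells of day 10 are the iHA-Foxk1 line. The part of Foxk1 that was removed, the number of clones and the origin of the 2 libraries of a group are not given in the sources used here, so p-values measure no more than how far these libraries vary, and that variation may be technical. Irradiated fibroblasts served as feeders for the stem cells and were depleted by letting them attach before differentiation.

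Foxk1 and Foxk2 are closely related transcription factors that carry a forkhead DNA-binding domain and a forkhead-associated domain, which binds phosphorylated proteins. Both bring the Sin3 complex to DNA, in which Sin3a or Sin3b is the scaffold, Hdac1 and Hdac2 remove acetyl groups from histones, and Suds3 and Sap30 are accessory subunits. They also bind Bap1, a deubiquitinase that removes ubiquitin from histone H2A. Foxk1 is best known from muscle progenitors.

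Each library came as a list of summits with a score and no read counts, so depth is unknown, and lists held 53456 to 59006 summits at day 3, 14519 to 48391 at day 5 and 4028 to 10548 at day 10. Values are therefore ranks: rank 1 is the summit with the highest score of its list. Genotypes were compared within a day over the N best summits, N being the shortest list of that day (53456, 14519 and 4028 at days 3, 5 and 10), and days 3 and 5 within a genotype likewise, over the shortest of those 4 lists. The iHA-Foxk1 day 5 replicate 1 library stood apart with the shortest list of days 3 and 5. In full lists it had a gene-end summit at 0 of 6 pluripotency and 0 of 8 nascent mesoderm markers. The other 7 libraries of those days had 2 to 6 and 6 to 7, in longer lists. Over the 14519 summits compared at day 5, pluripotency markers numbered 2 and 2 in KO and 0 and 1 in control. Nascent mesoderm markers numbered 0 and 1 in KO and likewise in control. At day 10, full lists held gene-end summits at 0 to 1 of 6 pluripotency, 0 of 8 nascent mesoderm and 0 to 1 of 6 cardiomyocyte markers. Fibroblast feeder markers had gene-end summits in full lists at 6 of 8 genes in every day 3 library and at 0 at day 10. At day 5 full lists gave 5 and 6 in KO and 3 and 5 in control. Over the 14519 compared, feeder markers numbered 0 and 1 in KO and 3 and 1 in control. Their part in the results below was not tested.

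Foxk1, the gene targeted in the KO (gene 17425, chromosome 5, 142401497 to 142462015, mm10), had by far the most summits of the 9 genes. Its 69 summits over the 12 lists exceeded those of 99% of the 19030 genes with a summit (median 13), and they formed 16 regions. Per library there were 8 and 10 summits in KO and 9 and 9 in control at day 3, 8 and 8 in KO and 3 and 8 in control at day 5, and 1 and 1 in KO and 3 and 1 in control at day 10. At days 3 and 5 the control library with the short list had the fewest. Since the deleted part is not known and a summit list holds no reads over it, these values are no check of the knockout. Of the 16 regions, 6 lay below the lower end and 10 inside the gene, and 0 were called in all 12 libraries.

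**Figure D1:**
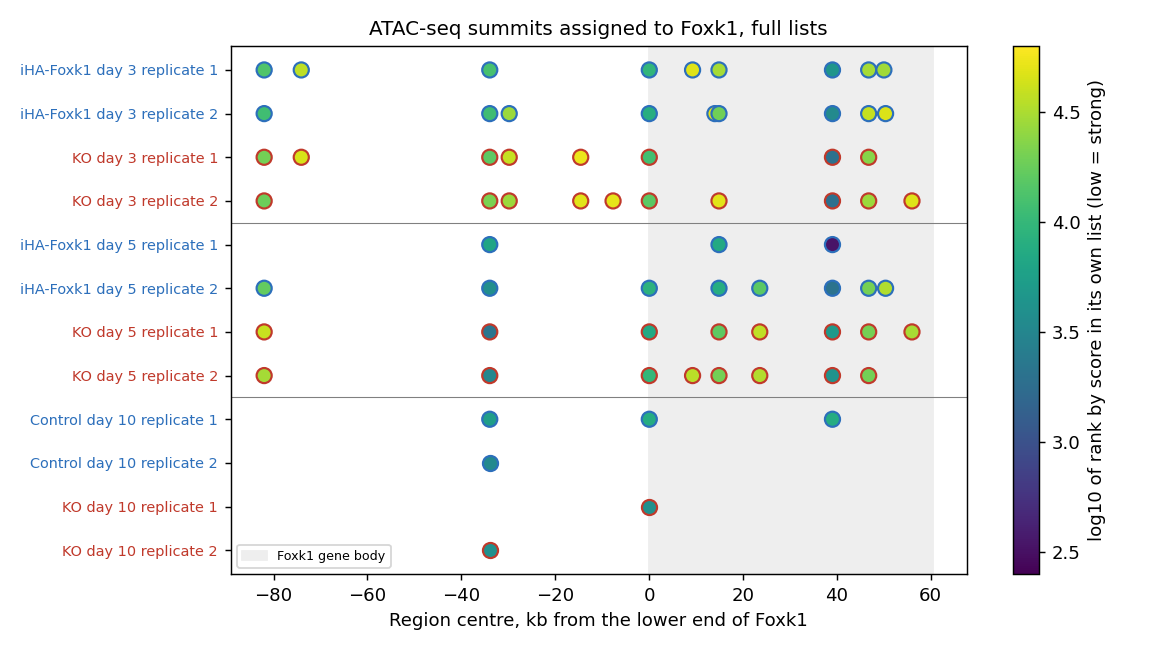
Summits assigned to Foxk1 in each library (rows, control in blue, KO in red), by distance of the region's centre from the lower end of the gene in kb. Colour gives log10 of the rank by score. Regions at -33.9, 0.052 and 39.1 kb recur in most libraries, while at day 10 the KO lists hold 1 summit each.

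The region at the lower end of Foxk1 (142401416 to 142401682) ranked 11813 and 15182 in the KO and 9290 and 8089 in the control at day 3. Both KO libraries were thus lower in their lists than both controls, by 8.99 percentage points of rank (rank percentile, 100 for the best of the N summits, whose points scale with N and are not comparable between days, 74.8 ± 4.46 in KO and 83.7 ± 1.59 in control, SD, n = 2 each). Such an order, with KO below control and no overlap, was found at 22.9% of all regions called in all 4 day 3 libraries. At day 5 the KO ranks were 7071 and 9691 and the control rank was 8475, with no summit in iHA-Foxk1 replicate 1. At day 10 a summit stood there in KO replicate 1 (rank 3954) and Control replicate 1 (rank 7498, beyond the 4028 compared).

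A region 33.9 kb below the gene (142367381 to 142367735) held a summit in 11 of 12 libraries, the most at Foxk1. At day 3 it ranked 15625 and 20944 in KO and 12378 and 11385 in control. At day 5 it ranked 2141 and 3230 in KO and 6415 and 3788 in control. KO libraries were below both controls at day 3 and above both at day 5, in rank percentile by -12 and 16.6 points (KO minus control). Among regions in all 4 libraries of day 5, KO ranks were better than both controls at 19%. Leaving out 1 library at a time moved the day 3 difference between -17 and -7. Without iHA-Foxk1 day 5 replicate 1 and with N kept, the day 5 difference was 7.59 points, and it was 3.24 with N set again to 34040, which rescales the points. At day 10 the ranks were 5436 and 3402 in Control and 3934 in KO replicate 2, with no summit in KO replicate 1.

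Inside the gene, 39.1 kb from the lower end (142440490 to 142440666), the order of genotypes was the opposite. The ranks were 1975 and 1882 in KO and 4456 and 3457 in control at day 3, and 4872 and 4322 in KO and 335 and 2054 in control at day 5. KO was above both controls at day 3 by 3.79 points (96.4 ± 0.123 against 92.6 ± 1.32, SD, n = 2), an order seen at 27.6% of all regions in all 4 libraries. With merging at 100 bp neither this region nor that 33.9 kb below the gene was in all 4 libraries of day 3. At day 5 KO was below both controls by 23.4 points (difference -23.4, 68.3 ± 2.68 against 91.8 ± 8.37), an order seen at 18.3%. The control libraries held this region among their best summits at day 5, and without iHA-Foxk1 replicate 1 the difference was -17.5 with N kept and -7.47 with N set again. At day 10 Control replicate 1 alone had a summit there, at rank 7569.

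Another recurrent region inside Foxk1, 14.9 kb from the lower end (142416267 to 142416536), ranked lower in KO on both days. At day 3 it ranked 29905 and 19207 in control and 49262 in KO replicate 2, and it was not called in KO replicate 1. At day 5 it ranked 7092 and 7692 in control and 15936 and 19363 in KO. Because the KO ranks fell beyond the 14519 summits compared, the region counted as control-only at day 5 (a summit in both control and neither KO library), the sole such region of the 9 genes, against 7.97% of all reproducible regions (in both libraries of at least 1 genotype). It was present in both KO lists when all summits were used, so the peak was not absent there but lower in rank. The day 5 lists differ in length (48391 and 42129 summits in KO, 14519 and 34040 in control). Without iHA-Foxk1 day 5 replicate 1, N was 34040 and both KO ranks lay within it, so the call rests on that library.

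Regions 82 kb below and 46.8 kb inside the gene held summits in 7 of 12 libraries each. The region 82 kb below the gene (142319455 to 142319529) ranked 19437 and 18084 in KO and 13861 and 11512 in control at day 3, and 40094 and 30074 in KO and 16669 in control replicate 2 at day 5. The region 46.8 kb inside (142448275 to 142448308) ranked 23278 and 27674 in KO, above 29962 and 38519 in control, at day 3. Of all regions in all 4 day 3 libraries, 22.9% had KO below control with no overlap, as at 82 kb. KO was above control with no overlap, as at 46.8 kb, at 27.6%. The remaining 10 regions held summits in 1 to 3 libraries each. Days 3 and 5 were also compared within genotypes, and the shares of regions so called were below those of all regions. Over the best 42129 summits of each KO library, the region 29.8 kb below the gene was in both day 3 lists alone, and the one 14.9 kb inside in both day 5 lists alone. Day 3-only regions made up 10.8% and day 5-only regions 8.59% of all reproducible regions of that comparison, and these were the 1 and 1 of 17 regions of the 9 genes so called. Over the best 14519 of each control library, the region 82 kb below was day 3-only (background 22.5%) and the region 14.9 kb inside day 5-only (background 13.4%), again 1 and 1, of 12 regions. The latter had day 3 ranks of 29905 and 19207 in control and 49262 in KO replicate 2, beyond the summits compared. With all summits 0 regions were day 5-only in either genotype. Peak names in both KO day 5 lists carry the tag D7, so that the day of those libraries is uncertain.

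**Figure D2:**
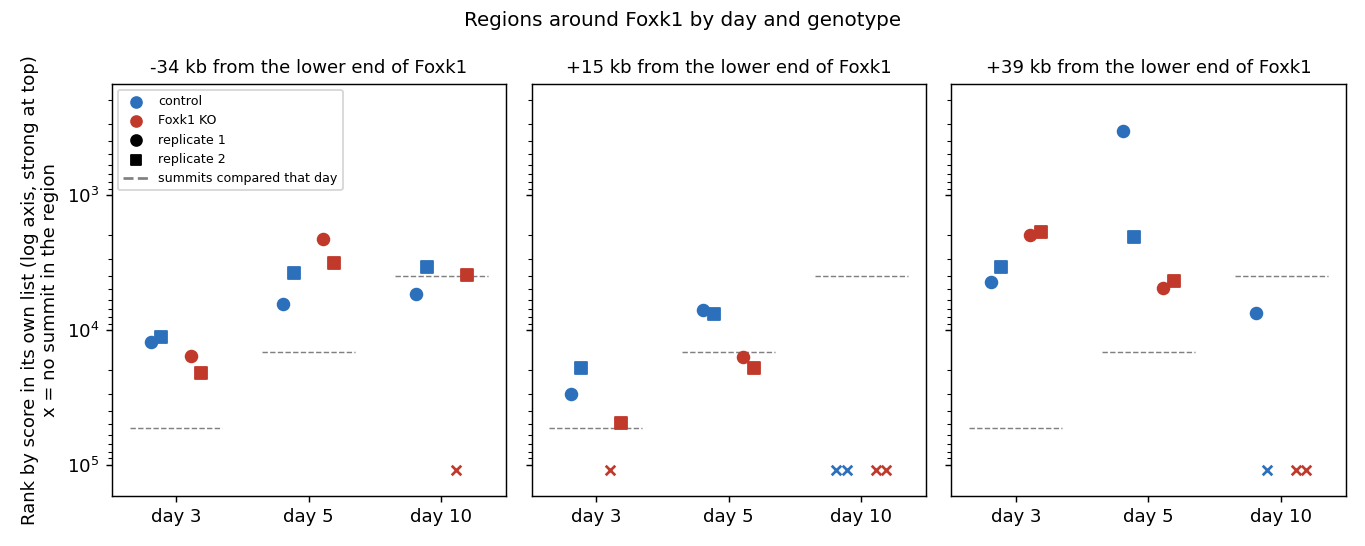
Rank by score (log axis, strong at top) of 3 Foxk1 regions at days 3, 5 and 10 in control (blue) and KO (red), circles for replicate 1 and squares for replicate 2. Crosses mark lists with no summit and dashed lines the number of summits compared. At -33.9 kb the genotypes change places between day 3 and day 5, at 39.1 kb they change places the other way, and at 14.9 kb the control is better ranked on both days.

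The closest relative of Foxk1, Foxk2 (gene 68837, chromosome 11, 121259987 to 121309900), had a single recurrent region. It lay at the gene start (121259771 to 121259995) and, apart from 1 further summit in KO day 5 replicate 1, the rest of the gene had none. Its ranks were 6443 and 9227 in KO and 10842 and 6884 in control at day 3, and 2940 and 5211 in KO and 10869 and 3100 in control at day 5. The genotypes overlapped on both days. At day 10 Control ranks were 4683 and 3044 and neither KO list had a summit, but since only 1 Control rank was among the 4028 compared, the region was not called. The sequence before the Foxk2 start is shown because 9 of the 10 summits fell in it (the tenth, 8 bp after the start, was that of Control day 10 replicate 2). It is 250 bases of RefSeq on GRCm38.p6, chr11:121259737-121259986, plus strand, 5′ to 3′, with CCAAT boxes and a GC box (GGGCGG), searched on both strands, in capitals.

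Foxk2: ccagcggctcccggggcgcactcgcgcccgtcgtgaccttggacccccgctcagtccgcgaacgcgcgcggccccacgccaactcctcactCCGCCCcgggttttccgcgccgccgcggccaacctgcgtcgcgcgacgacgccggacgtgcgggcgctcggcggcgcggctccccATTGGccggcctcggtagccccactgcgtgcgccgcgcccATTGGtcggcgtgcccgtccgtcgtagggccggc

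Apart from those of iHA-Foxk1 day 5 replicate 1 and Control day 10 replicate 2, the summits lay at 121259884 to 121259938. The median of all, 66.5 bp before the start, was the place of none of them. That median falls between the CCAAT boxes (written ATTGG on this strand), the upstream of which spans 74 to 70 bp before the start. In iHA-Foxk1 day 5 replicate 1 the summit lay 216 bp before the start, the farthest of the 10. Among genes with a gene-end region in all 8 libraries of days 3 and 5 (6545 regions), those whose rank percentiles were nearest to Foxk2 were Mtx1, Ctbp1, Fance, Ube2r2 and Tmem201, with mean absolute differences of 2.66 to 4.29 points over the 8 libraries. Ctbp1 encodes another transcriptional corepressor. The same list could not be drawn up for Foxk1, whose gene-end region was missing from iHA-Foxk1 day 5 replicate 1.

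Of the scaffolds, Sin3a (gene 20466, chromosome 9, 57071991 to 57128368) was open mainly at an internal start. RefSeq places starts at 57072040 and at 57076376. The region just before the latter (57075869 to 57076296) held a summit in 11 of 12 libraries and ranked 8838 and 7883 in KO and 8180 and 11568 in control at day 3. At day 5 it ranked 6287 and 7513 in KO and 4083 and 4274 in control, so that KO was below both controls (52.5 ± 5.97 against 71.2 ± 0.93 in rank percentile, SD, n = 2). With merging at 100 bp this region was not in all 4 libraries of day 5, so that order rests on merging at 250 bp. At the outer start (57071992 to 57072222) summits were weak, ranking 35948 to 52009 in 5 libraries, all of KO except iHA-Foxk1 day 3 replicate 2. Between the starts, 57073586 to 57073725 held a summit in 10 libraries (17668 and 17693 in KO and 17445 and 18974 in control at day 3). A separate summit nearby (57073135) was called in iHA-Foxk1 day 5 replicate 1 alone, at rank 1265, where the other day 5 libraries had 57073586 to 57073693. At day 10 the internal start ranked 5117 and 2634 in Control and 4512 in KO replicate 2.

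Sin3b (gene 20467, chromosome 8, 72723270 to 72758203), the paralogous scaffold, had its strong region at the start (72723212 to 72723326) in all 8 libraries of days 3 and 5 and in 0 of 4 at day 10. It ranked 4031 and 7150 in KO and 4383 and 7603 in control at day 3. At day 5 it ranked 2942 and 5624 in KO and 8537 and 7373 in control, with KO above both controls (70.5 ± 13.1 against 45.2 ± 5.67, SD, n = 2). The order at Sin3b was found at 19% of all regions in all 4 libraries of day 5, and that at Sin3a, the opposite, at 18.3%. Without iHA-Foxk1 replicate 1 the differences were 21.3 for Sin3b and -18.1 for Sin3a with N kept (9.08 and -7.71 with N set again). Inside Sin3b a region 23 kb from the start (72746208 to 72746234) ranked 36862 and 51460 in KO and was in neither control list, the 1 KO-only region of the 9 genes at day 3 (background 9.77%). Another, 26.7 kb inside (72749835 to 72750172), held summits in all 4 libraries of day 3 and both KO libraries of day 5. The sequence before the Sin3b start is shown for contrast with Foxk2, having the same GC box but no CCAAT box in the window searched (chr8:72723020-72723269, plus strand, capitals as before and for TATAAA, found in reverse).

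Sin3b: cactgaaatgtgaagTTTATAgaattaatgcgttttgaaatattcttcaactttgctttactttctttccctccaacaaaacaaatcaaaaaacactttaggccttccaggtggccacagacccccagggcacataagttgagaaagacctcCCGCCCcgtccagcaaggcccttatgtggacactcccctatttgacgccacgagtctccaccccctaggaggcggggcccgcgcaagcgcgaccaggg

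Suds3 (gene 71954, chromosome 5, 117091678 to 117115993), a subunit that stabilises the complex with the deacetylases, ranked low at its start at day 3, below the start regions of the other genes except that of Bap1, which overlapped it, and the outer start of Sin3a, which ranked lower. At 117115990 to 117116210 it ranked 21297 and 20064 in KO and 25009 and 21699 in control, KO above both controls by 5 points, an order seen at 27.6% of regions. Without iHA-Foxk1 day 3 replicate 1 the difference was 1.91. At day 5 it ranked 18291 and 15599 in KO and 14731 in control replicate 2, all beyond the 14519 compared. All 4 KO summits of days 3 and 5 lay at 117116169 to 117116210, while the 3 control summits of those days lay at 117116207, 117115999 and 117115990. At day 10 Control replicate 1 alone had a summit (117116011, rank 9072). A shift in place was not tested.

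Sap30 (gene 60406, chromosome 8, 57482702 to 57487860), a subunit that helps to join the deacetylases to Sin3, was the only gene of the 9 with a region in all 12 libraries. The region at its start (57487843 to 57488002) ranked 2117 and 2129 in KO and 3351 and 944 in control at day 3. At day 5 it ranked 974 and 2506 in KO and 228 and 966 in control. At day 10 it ranked 3793 and 2639 in KO and 1533 and 700 in Control. KO overlapped control at day 3, fell below both controls by the margin between ranks 974 and 966 at day 5, and was below both at day 10 (20.2 ± 20.3 against 72.3 ± 14.6, SD, n = 2), an order seen at 26% of regions in all 4 libraries of day 10. That day 10 difference, -52.1, was -37.8 without KO replicate 1 and with N kept, and -32 with N set again. Over all days the difference was -20 points (two-sided exact permutation of genotype within days, p = 0.0648, adjusted p = 0.823 over 1295 regions in all 12 lists). Without day 10 it was -3.91 (exact permutation p = 0.389), so that day 10 carried most of it. It did not pass, and 0 of the 1295 regions did (69 were under 0.05 before adjustment). The sequence before the start (chr8:57487861-57488110, minus strand) is shown because every library had a summit in the window around it.

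Sap30: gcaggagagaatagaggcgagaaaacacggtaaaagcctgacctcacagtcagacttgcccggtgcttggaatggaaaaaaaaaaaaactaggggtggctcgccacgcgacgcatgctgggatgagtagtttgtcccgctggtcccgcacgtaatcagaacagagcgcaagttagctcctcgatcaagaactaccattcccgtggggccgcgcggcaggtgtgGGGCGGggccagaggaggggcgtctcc

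Its GC box lies 27 to 22 bp before the start, and the median summit 41.5 bp before it.

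Hdac1 (gene 433759, chromosome 4, 129516104 to 129542646), a class I deacetylase, had its region at the upper end (129542675 to 129542854) in 11 of 12 libraries. It ranked 4067 and 11525 in KO and 6892 and 4068 in control at day 3, 2760 and 3290 in KO and 11706 and 1974 in control at day 5, and 3385 in KO replicate 2 and 4869 and 1993 in Control at day 10. The genotypes overlapped at days 3 and 5, and replicates of a group lay as far apart as the groups.

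Hdac2 (gene 15182, chromosome 10, 36974297 to 37001889), its paralogue, had the best-ranked start region of the 9 genes at day 3. At 36974324 to 36974557 it ranked 1307 and 839 in KO and 1004 and 1202 in control at day 3, and 954 and 964 in KO and 3958 and 918 in control at day 5. At day 10 the Control libraries ranked it 1857 and 2339 and neither KO list held a summit of any rank. This made it control-only at day 10, 1 of 2 reproducible regions of the 9 genes on that day (Sap30 was the other). Over the genome 11.8% of reproducible regions were control-only at day 10, and 15% of those within 1 kb of a gene end. With full lists, 36.7% of the 6548 regions in both Control libraries had no KO summit, and so had 38.3% of the 4772 regions called in the 10 libraries other than KO day 10. Sets as well ranked as Hdac2, chosen after its values were seen, gave smaller shares. Among the 4772, 72 of 1195 regions (6.03%) with both Control ranks at 2339 or better had no KO day 10 summit, and 62 of 997 (6.22%) with all 10 ranks at 3958 or better. The KO lists of that day are the shortest of the series (4028 and 4755), and day 10 libraries alone lack the duplicate-removal tag in their peak names. The part of either in this result was not tested. Around the gene, a region beyond the upper end (37022637 to 37022714) was control-only at day 3 (ranks 40331 and 50020, background 9.57%), and KO day 10 replicate 1 had a summit 56.2 kb below the gene at rank 1814.

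The Hdac2 summits also differed in place. They lay at 36974346, 36974327, 36974342 and 36974345 in the KO libraries of days 3 and 5, within 20 bp of each other. Those of control lay at 36974469, 36974324, 36974500 and 36974456, and those of Control day 10 at 36974557 and 36974507. Thus 3 of the 4 control summits of days 3 and 5 were over 100 bp nearer to the RefSeq start at 36974544 than any KO summit. To the lower end of the gene at 36974297, the KO summits were in turn nearer than those 3. Neither was tested. The 30 bases before the start at 36974544 (chr10:36974514-36974543, plus strand) are shown because they lie between the Control day 10 summits, with the GC box in capitals.

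Hdac2: cgcagccccgCCGCCCggaggcctacccct

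Bap1 (gene 104416, chromosome 14, 31251352 to 31259930) shares its promoter with Phf7, a PHD finger gene whose upper end is at 31251344. The nearest-end rule therefore gave 5 of the 11 summits there to Bap1 and 6 to Phf7, although all lay within 227 bp (31251255 to 31251481). Taken as a single region, it was called in 11 of 12 libraries. It ranked 11947 and 12573 in KO and 7399 and 21907 in control at day 3, 2123 and 4580 in KO and 908 and 6135 in control at day 5, 1699 in KO replicate 1 and 5335 and 3450 in Control at day 10. The genotypes overlapped on days 3 and 5. At day 5 both KO summits lay on the Bap1 side (31251443 and 31251402) and both control summits on the Phf7 side (31251255 and 31251291), while at day 3 each genotype had a summit on either side. The 30 bases around the facing ends of the 2 genes (chr14:31251329-31251358, plus strand) are shown because these ends decide the assignment. Only the middle of the stretch lies between the genes. The 30 bases hold overlapping GC boxes and the E-box CACGTG, a site bound by Max and Mxd proteins, which are known to recruit Sin3.

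Bap1: gcCCGCCCCGCCCtccgCACGTGcgcgccc

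Promoter windows of RefSeq (250 bases before to 50 after a start) matched 7 of the 9 genes, with 8 windows. Foxk1 and Hdac1 had no window in the table. The GC box GGGCGG was in 8 of 8 member windows and in 35.7% of the 32851 windows of all genes. CCAAT was in 3 (Foxk2 and both Sin3a windows, 37.4% of all), CCGGAAG, the core of ETS sites, in that of Suds3 (8.86%), CACGTG in that of Bap1 (7.15%) and TATAAA in that of Sin3b (13.6%). The forkhead core TAAACA was in the window of the outer Sin3a start alone (13.4%), and the longer GTAAACA and the NRF1 site GCGCATGC were in 0 of 8 (3.65% and 2.71%). All letters were searched on both strands, TAAACA being part of GTAAACA.

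**Figure D3:**
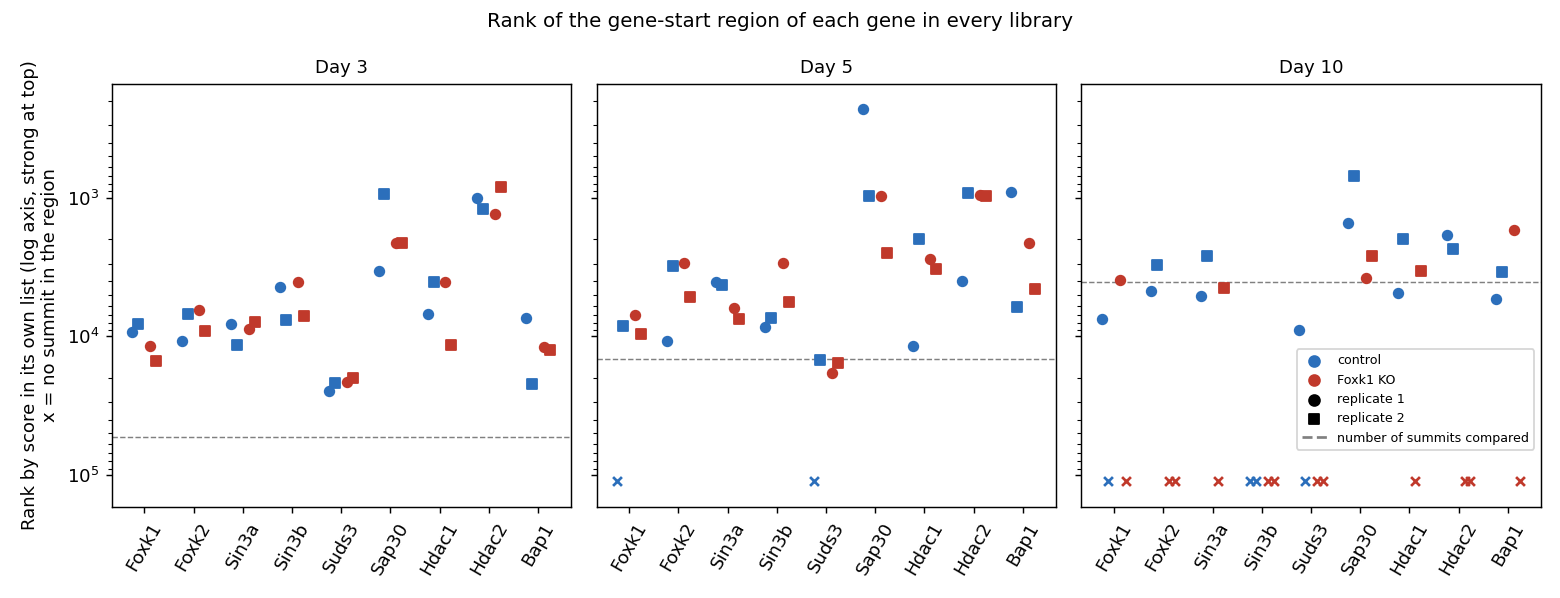
Rank by score (log axis, strong at top) of the start region of each gene in each library, with a panel per day, control in blue, KO in red, circles for replicate 1 and squares for replicate 2. Crosses mark lists with no summit and the dashed line the number of summits compared. Hdac2 and Sap30 stand at the top at day 3, Suds3 near the bottom, and at day 10 Hdac2 has both control points and both KO crosses.

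Across the 9 start regions the order at day 3, over the 4 libraries, ran from Hdac2 (ranks 839 to 1307) and Sap30 (944 to 3351) through Sin3b (4031 to 7603), Hdac1 (4067 to 11525), Foxk2 (6443 to 10842), the internal start of Sin3a (7883 to 11568) and Foxk1 (8089 to 15182) to Bap1 (7399 to 21907) and Suds3 (20064 to 25009). Neighbours in this order overlapped, except that Sap30 and Sin3b did not. Of 40 regions, 12 (30%) were in at least 8 libraries and 12 (30%) in 1 library, against 11.9% and 34.3% of all regions. Of these 40, 11 lay within 1 kb of a gene end.

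Few regions of the 9 genes were called in either genotype alone. At day 3, 1 of 19 reproducible regions was KO-only (Sin3b) and 1 control-only (Hdac2), against 9.77% and 9.57% of all regions. At day 5, 0 of 12 was KO-only (background 12.1%) and 1 control-only (Foxk1, 7.97%). At day 10, 0 of 2 was KO-only (9.88%) and 1 control-only (Hdac2, 11.8%). Shares at days 3 and 5 were near or below those of the genome, and 2 regions are too few to read a share at day 10. Within 1 kb of a gene end 0 regions of the 9 genes were KO-only on any day (background 2.78%, 2.36% and 2.88% at days 3, 5 and 10), 0 were control-only at days 3 and 5 (2.31% and 2.16%), and 1, Hdac2, was at day 10 (15%). Ranks in all 4 libraries were better in KO with no overlap at 3 of 14 regions and worse at 3 of 14 at day 3 (27.6% and 22.9% of all), and at 2 and 3 of 9 at day 5 (19% and 18.3%). At day 10 they were worse at 1 of 1 (26%) and better at 0 (19.1%). The median difference in rank percentile was 0.871 at day 3 and 10.2 at day 5 for these regions, and 0.609 and 0.492 for all regions. Neither sign was stable for these genes. Without iHA-Foxk1 day 5 replicate 1 and with N kept the day 5 median was -5.33, and without iHA-Foxk1 day 3 replicate 2 the day 3 median was -0.389. Of the 9 regions in all 8 libraries of days 3 and 5, 1 was better in KO at day 3 and worse at day 5 with no overlap (3.42% of all) and 1 the reverse (3.19%), both at Foxk1, while 0 was worse on both days (4.66%) and 0 better on both (5.17%).

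No test of genotype passed. At the 9 regions of these genes in all 8 libraries of days 3 and 5, adjusted p-values by two-sided exact permutation within days were at least 0.685. Of all 8372 regions in those libraries 0 passed, and none could, as the smallest p of that design is 0.0556. The number of summits per gene (per 10000 compared, 16330 genes) differed (KO minus control) by 0.0624 for Sin3b, -0.476 for Hdac2 and 0.268 for Foxk1 (two-sided exact permutation, p = 0.333, 0.167 and 0.833, adjusted p = 1 for each). It was -0.414 for both Foxk2 and Sin3a, -0.184 for Bap1 (without the summits given to Phf7) and -0.0312 for Suds3. Hdac1 and Sap30 showed no difference. For Foxk1 the sign changed without day 10 (-0.219), with all summits (-0.0885) and without Control day 10 replicate 1 (-0.146). For Hdac2 the difference was -0.0935 without day 10, -0.0624 without KO day 10 replicate 2 and -0.0787 with all summits, and for Sin3b it was 0.459 with N divided by 2. Of all genes 0 passed and 49 were under 0.05 before adjustment. With 216 arrangements the smallest p is 0.00926, so that a gene or region could pass only if very many reached it together.

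Other genes of the same complexes were counted in the same way. Of 19 genes of the Sin3 complex and class I deacetylases, 17, 16 and 10 had reproducible regions at days 3, 5 and 10. At day 3, 0 of 34 regions were KO-only and 1 was control-only, near the deacetylase gene Hdac8 (chromosome X, 102302893 to 102303128, 18255 bp from the gene). At day 5, 0 of 21 were KO-only and 3 control-only. These were gene ends of Brms1, a Sin3 subunit (chromosome 19, 5041315 to 5041370, 7 bp from a gene end), and of Ogt, the enzyme that adds GlcNAc to proteins and binds Sin3a (chromosome X, 101639872 to 101639925, 86 bp), and a region near Rbbp7, a histone chaperone (chromosome X, 162748968 to 162749189, 11183 bp). All 3 had KO summits beyond the 14519 compared. At day 10, 0 of 12 were KO-only and 1 was control-only, at an end of Sinhcaf, a subunit of the complex (chromosome 6, 148946553 to 148946579, 83 bp), with no KO summit of any rank. Shares of control-only regions in this list thus stood at 1 of 34, 3 of 21 and 1 of 12, beside 9.57%, 7.97% and 11.8% of all regions.

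Of 9 Bap1 partners, 7, 7 and 4 had regions. At day 3, 1 of 21 regions was KO-only and 2 were control-only (9.77% and 9.57% of all regions), and all 3 were assigned to Asxl3, a gene for a subunit that activates Bap1. The KO-only region lay 314 bp from a gene end (2.78% of all regions within 1 kb of a gene end were KO-only). The control-only regions lay 35782 and 79869 bp away. At day 5, 1 of 8 was KO-only, near Bard1 (chromosome 1, 71086048 to 71086049, 17092 bp from the gene), and 0 were control-only (12.1% and 7.97% of all), and at day 10 there were 0 of either among 5 (9.88% and 11.8%).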

How the data were processed

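ATAC-seq of 12 libraries in 6 groups of 2 was analysed from the summit lists as deposited. Bowtie2 2.2.4, MACS2 without a version, and the build mm10 are named in the submitters' processing notes. Lists are 1 per library. The deposited score is the −log10 of a p-value or q-value (the labels do not say which), and it served only to rank summits within a list. Groups came from the labels, which were followed although peak names in both KO day 5 lists say D7. No 2 lists shared a summit of equal position and score, so none was treated as a duplicate.

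Summits on chromosomes 1 to 19 and X were ranked by score, cut to N, and merged by single linkage at 250 bp in Python 3.11.15 with pandas 2.3.3. The ends of 21631 protein-coding genes, without strand or exons, came from RefSeq on GRCm38.p6 (mm10). All symbols of the lists matched. Within a day 2 against 2 libraries cannot be tested, so orders without overlap are described beside their share over all regions. Genotype was permuted within days (216 arrangements), with Benjamini-Hochberg adjustment over all regions or genes. Calls and permutations were tested on simulated data. Alternatives were other N, merging distances, gene distances, absence rules, a replicate block and leaving out libraries, with N set again or kept. Those for rank percentiles within a day were chosen after seeing the data.

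All 9 members and the lists of further genes were chosen with earlier results of these data known. Further genes are named where they had a KO-only or control-only region, at most 6 per day.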

Additional observations from a re-analysis of the deposited data

Results flagged for a closer look

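At 2 regions of Foxk1 every KO library differed from both controls in opposite directions at days 3 and 5. At the region 33.9 kb below the gene the rank percentile, KO minus control, was -12 at day 3 and 16.6 at day 5. At the region 39.1 kb inside the gene it was 3.79 at day 3 and -23.4 at day 5. With merging at 100 bp neither region was in all 4 libraries of day 3, so the day 3 order rests on merging at 250 bp. The day 5 values stayed the same. Over regions in all 8 libraries, 3.19% showed the same pattern as the former and 3.42% that of the latter. The difference between days was tested by two-sided exact permutation of genotype within days, with p = 0.0556 for each, the smallest p of this design, and adjusted p = 0.841 over 8372 regions. Because these 2 regions were picked for their order on both days, this p was fixed by the choice and tests nothing further. Percentile points also scale with N, which differs between days. Without iHA-Foxk1 day 5 replicate 1 the day 5 values were 7.59 and -17.5 with N kept, and 3.24 and -7.47 with N set again to 34040. KO day 5 peak names carry the tag D7, and the part of a difference in day was not tested.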

How the results depend on the processing

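No alternative gave a region or gene an adjusted p under 0.05. Without day 10 none could, as the smallest p of the exact permutation is then 0.0556. With a replicate block it is 0.03125, so that a region or gene could pass only if very many reached it together. With all summits, KO-only regions of the 9 genes numbered 2 at day 3 and 2 at day 5, control-only 0 at day 5 and 3 at day 10, day 3-only in KO 3, and day 5-only 0 in KO and 0 in control. With N divided by 2, KO-only regions numbered 0 at day 3 and 1 at day 5, control-only 0 at days 3 and 5, day 3-only in control 0, day 5-only 2 in KO and 2 in control, KO ranks better at day 5 1 and worse at day 10 0. Merging at 100 bp gave 2 regions of either kind at day 5, and 1 better and 1 worse at day 3. Those of day 3 were the Foxk1 regions 46.8 kb inside and 82 kb below the gene. Merging at 500 bp gave 2 control-only at day 3, and absence judged on full lists 0 at day 5. The Foxk1 summit difference turned from 0.268 to -0.0885 with all summits, -0.219 without day 10 and -0.146 without Control day 10 replicate 1. The cause was not tested.

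Leaving out each library in turn gave 1 to 4 regions in KO alone and 1 to 5 in control alone at day 3, 0 to 3 and 1 to 3 at day 5, and 0 to 2 and 1 to 4 at day 10. It gave 1 to 2 day 3-only and 1 to 6 day 5-only regions in KO, and 0 to 2 and 1 to 2 in control. KO ranks were better at 5 to 7 and worse at 4 to 5 regions at day 3, and at 2 to 5 and 3 to 8 at day 5, where leaving out iHA-Foxk1 day 5 replicate 1 gave 4 and 8. With 1 library in a group the condition is easier to meet. In these values N was set again from the remaining lists, which rescales percentile points by construction, as N divided by 2 does (-24 and 33.3 for the Foxk1 region 33.9 kb below the gene at days 3 and 5, -46.9 for that 39.1 kb inside at day 5). With N kept, the median difference of the 9 genes' regions turned to -0.389 at day 3 without iHA-Foxk1 day 3 replicate 2 and to -5.33 at day 5 without iHA-Foxk1 day 5 replicate 1. Without day 10 the Sap30 difference was -3.91. Over left-out libraries it ran from -24.8 to -13.3, that of Hdac2 summits from -0.763 to -0.0624 and that of Foxk1 summits from -0.146 to 0.682.

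Replicate numbers did not pair the samples (correlations of deviations 0.0497, -0.0311 and -0.0313 at days 3, 5 and 10). With a replicate block the Sap30 difference was -20 (two-sided exact permutation, p = 0.0938), and 0 regions and 0 genes passed, as without it. Depth is unknown, so a missing summit may lie under the limit of the peak call.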
